A study of Mus musculus with 32 samples.

Results

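The circadian clock genes described here are 10 genes of the molecular clock, chosen by their gene names in the deposited tables: Arntl, Clock, Per1, Per2, Per3, Cry1, Cry2, Nr1d1, Nr1d2 and Dbp. They are 10 of the 53801 gene IDs listed for each of 32 mouse quadriceps libraries, and each was found under 1 gene ID in every table. Bulk RNA sequencing was done on muscle of 4 mice in each of 8 groups: wild-type (WT) and Col6a2-/- mice, females and males, at 5 and at 25 weeks of age. Col6a2-/- mice are homozygous for the Col6a2 tm1(KOMP)Vlcg allele and so lack a chain of collagen VI, a protein of the matrix around muscle fibres whose human genes are mutated in collagen VI muscular dystrophies. The allele came from a C57BL/6N strain of a mutant repository, was backcrossed to C57BL/6J, and is carried in the germline, so that no cell type of the mouse is spared; WT and Col6a2-/- mice were both bred from heterozygous parents. RNA was taken from frozen sections of the quadriceps, a bulk tissue, in which fewer cells of a type and less RNA per cell cannot be told apart. The mice lived under regular light and dark cycles, and the labels give no hour of collection, so no level below can be placed at a time of day. A difference between groups therefore cannot be told apart from a difference in their hour of collection.

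The clock is a feedback loop of transcription that runs in nearly every cell, muscle fibres included. ARNTL (also called BMAL1) and CLOCK bind DNA together and switch on the Per and Cry genes, whose proteins return to the nucleus and repress that pair. The same activators switch on Nr1d1 and Nr1d2, which encode the nuclear receptors REV-ERB alpha and REV-ERB beta, repressors of Arntl, and Dbp, an output factor that carries the rhythm to other genes. Over a day in many tissues the level of Arntl is therefore high when that of Dbp and the REV-ERB genes is low. In skeletal muscle the clock is known for its control of metabolic genes.

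The sequences around the start sites of 4 of these genes are given, those of Arntl and Dbp, whose levels in every mouse follow, and of Per1 and Per3, which hold matches to known clock motifs. RefSeq windows of 300 bases on GRCm38.p6, from 250 bases before to 50 after a start site, were held for 9 of the 10 genes, 13 windows in all, and none for Per2. The searches, on both strands, were for the E-box CACGTG bound by ARNTL and CLOCK and its variant CACGTT, for the D-box TTATGTAA and its form TTACGTAA bound by DBP and its relatives, and for the element bound by the REV-ERB and ROR receptors, AGGTCA directly preceded by AANT, where N is any base. No match below overlaps another. Capitals mark the matches, and each sequence is written 5′ to 3′ on the strand of the gene.
Arntl, chr7:113207261-113207560, plus strand: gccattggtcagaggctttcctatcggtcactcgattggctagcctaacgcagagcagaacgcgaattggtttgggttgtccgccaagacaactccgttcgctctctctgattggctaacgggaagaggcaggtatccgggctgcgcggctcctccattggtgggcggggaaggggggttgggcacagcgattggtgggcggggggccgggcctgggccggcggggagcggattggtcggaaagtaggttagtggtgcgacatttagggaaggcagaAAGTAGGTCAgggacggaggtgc
Per1, chr11:69098699-69098998, plus strand: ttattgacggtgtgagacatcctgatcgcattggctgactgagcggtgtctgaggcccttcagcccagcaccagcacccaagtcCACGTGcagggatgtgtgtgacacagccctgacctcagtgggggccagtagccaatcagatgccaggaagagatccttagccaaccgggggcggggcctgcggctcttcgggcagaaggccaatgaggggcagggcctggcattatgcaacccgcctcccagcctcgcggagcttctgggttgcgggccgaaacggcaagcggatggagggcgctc
Per3, chr4:151044616-151044915, minus strand: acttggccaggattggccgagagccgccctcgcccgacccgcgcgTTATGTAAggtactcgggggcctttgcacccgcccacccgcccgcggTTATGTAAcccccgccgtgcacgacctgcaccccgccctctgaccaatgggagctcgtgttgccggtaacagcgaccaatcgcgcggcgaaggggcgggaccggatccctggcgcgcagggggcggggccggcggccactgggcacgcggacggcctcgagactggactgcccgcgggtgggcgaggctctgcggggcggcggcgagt
Dbp, chr7:45704997-45705296, plus strand: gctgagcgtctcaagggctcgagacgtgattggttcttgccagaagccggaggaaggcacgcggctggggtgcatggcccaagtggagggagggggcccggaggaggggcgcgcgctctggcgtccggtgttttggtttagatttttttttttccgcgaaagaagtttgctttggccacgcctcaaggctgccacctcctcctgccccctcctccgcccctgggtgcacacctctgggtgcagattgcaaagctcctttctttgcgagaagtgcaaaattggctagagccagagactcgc
Counting the start site of the window printed as 1 and the base before it as -1, the receptor element of Arntl began at position 28, the E-box of Per1 at -166, and the D-boxes of Per3 at -205 and -158. The receptor element was in 0.219% of all 32851 windows and in 1 of the 13 clock gene windows. Arntl and Per1 each have 2 windows, for 2 start sites, and the ones printed are those with a match: the other window of Arntl, chr7:113207215-113207514, and that of Per1, chr11:69099902-69100201, hold none of the motifs. TTATGTAA was in 0.938% of windows, and among the 13 only in that of Per3, while TTACGTAA was in 0.119% and in none of them. CACGTG was in 7.15% of windows and in 2 of the 13, those of Per1 and Cry1. CACGTT was in 4.68% and in 3 of the 13, those of Cry1, Cry2 and Nr1d1. In the Dbp window none of these letters was found, which says only that they are not in these 300 bases. A match is a description of the letters and not a measured binding site.

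The genotype labels were checked on Col6a2 itself, whose level in TPM (transcript abundance per length, scaled to the same total in each library) was 19.9 to 51.2 in the 8 WT mice at 5 weeks and 6.60 to 13.6 in the 8 at 25 weeks, against at most 0.171 in all 16 Col6a2-/- mice. The tissue label was checked on 10 muscle fibre genes, whose summed level was 25969 to 44952 TPM over the 32 libraries, with none of them at 0. Mitochondrial transcripts took 31.9% to 46.9% of the TPM of a library and the Rn7s genes, which encode the RNA of the signal recognition particle, 20.8% to 30.5%. The files hold no counts. The depth inferred from their coverage and FPKM columns was 6.78 to 13.7 gigabases. In each library 8 to 10 of the clock genes had at least 1 TPM, and none was at 0. All 10 clock genes passed the filter of at least 1 TPM in at least 4 libraries that kept 12817 genes for testing.

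Of the activators, Arntl (ENSMUSG00000055116, chromosome 7, 113207465 to 113314126 on GRCm38) ranged from 1.44 to 10.5 TPM, a 7.30-fold range, and most of this range was found inside single groups. In 5-week WT mice 1 to 4 its level was 1.65, 1.90, 5.97 and 7.15 TPM in females and 2.91, 2.26, 1.74 and 6.73 TPM in males. In 5-week Col6a2-/- mice it was 2.29, 9.07, 6.51 and 1.65 TPM in females and 5.88, 9.84, 10.3 and 1.44 TPM in males. At this age each of the 4 groups thus held mice with low and mice with high Arntl, and the genotypes overlapped, although 3 of 8 Col6a2-/- mice lay above every WT mouse. At 25 weeks WT levels were 10.2, 4.85, 8.52 and 7.75 TPM in females and 2.46, 2.30, 5.88 and 6.36 TPM in males. Col6a2-/- levels were 6.24, 7.24, 9.77 and 10.5 TPM in 25-week females and 2.57, 7.52, 8.10 and 7.18 TPM in 25-week males. The females at 25 weeks were the 2 groups with no mouse below 4.85 TPM. Clock (ENSMUSG00000029238, chromosome 5, 76209868 to 76304792), which encodes the partner of ARNTL, had a narrower range of 4.94 to 14.5 TPM with a median of 8.62 TPM. The median fold between the highest and the lowest mouse of a group was 3.51 for Arntl and 1.47 for Clock.

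Dbp (ENSMUSG00000059824, chromosome 7, 45705088 to 45710203), the output factor, had the widest range of the 10 genes, from 3.89 to 41.4 TPM, or 10.6-fold. In 5-week WT mice 1 to 4 it was at 39.5, 36.7, 7.82 and 6.58 TPM in females and at 28.7, 27.1, 28.0 and 6.56 TPM in males. In 5-week Col6a2-/- mice it was at 21.4, 11.05, 8.67 and 22.1 TPM in females and at 14.3, 4.63, 3.89 and 26.6 TPM in males. The mice high in Dbp at this age were largely those low in Arntl, in both genotypes. At 25 weeks WT levels of Dbp were 11.1, 28.3, 11.5 and 10.6 TPM in females and 21.9, 20.5, 12.9 and 20.2 TPM in males. Col6a2-/- levels of Dbp at 25 weeks were 15.2, 6.09, 7.90 and 6.67 TPM in females and 41.4, 8.60, 10.7 and 7.45 TPM in males. A single mouse, male 1 of the 25-week Col6a2-/- group, had the highest Dbp level of all 32 and the lowest Arntl level of its group. The plot of levels in every mouse gives the values of the other clock genes.

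**Figure D1:**
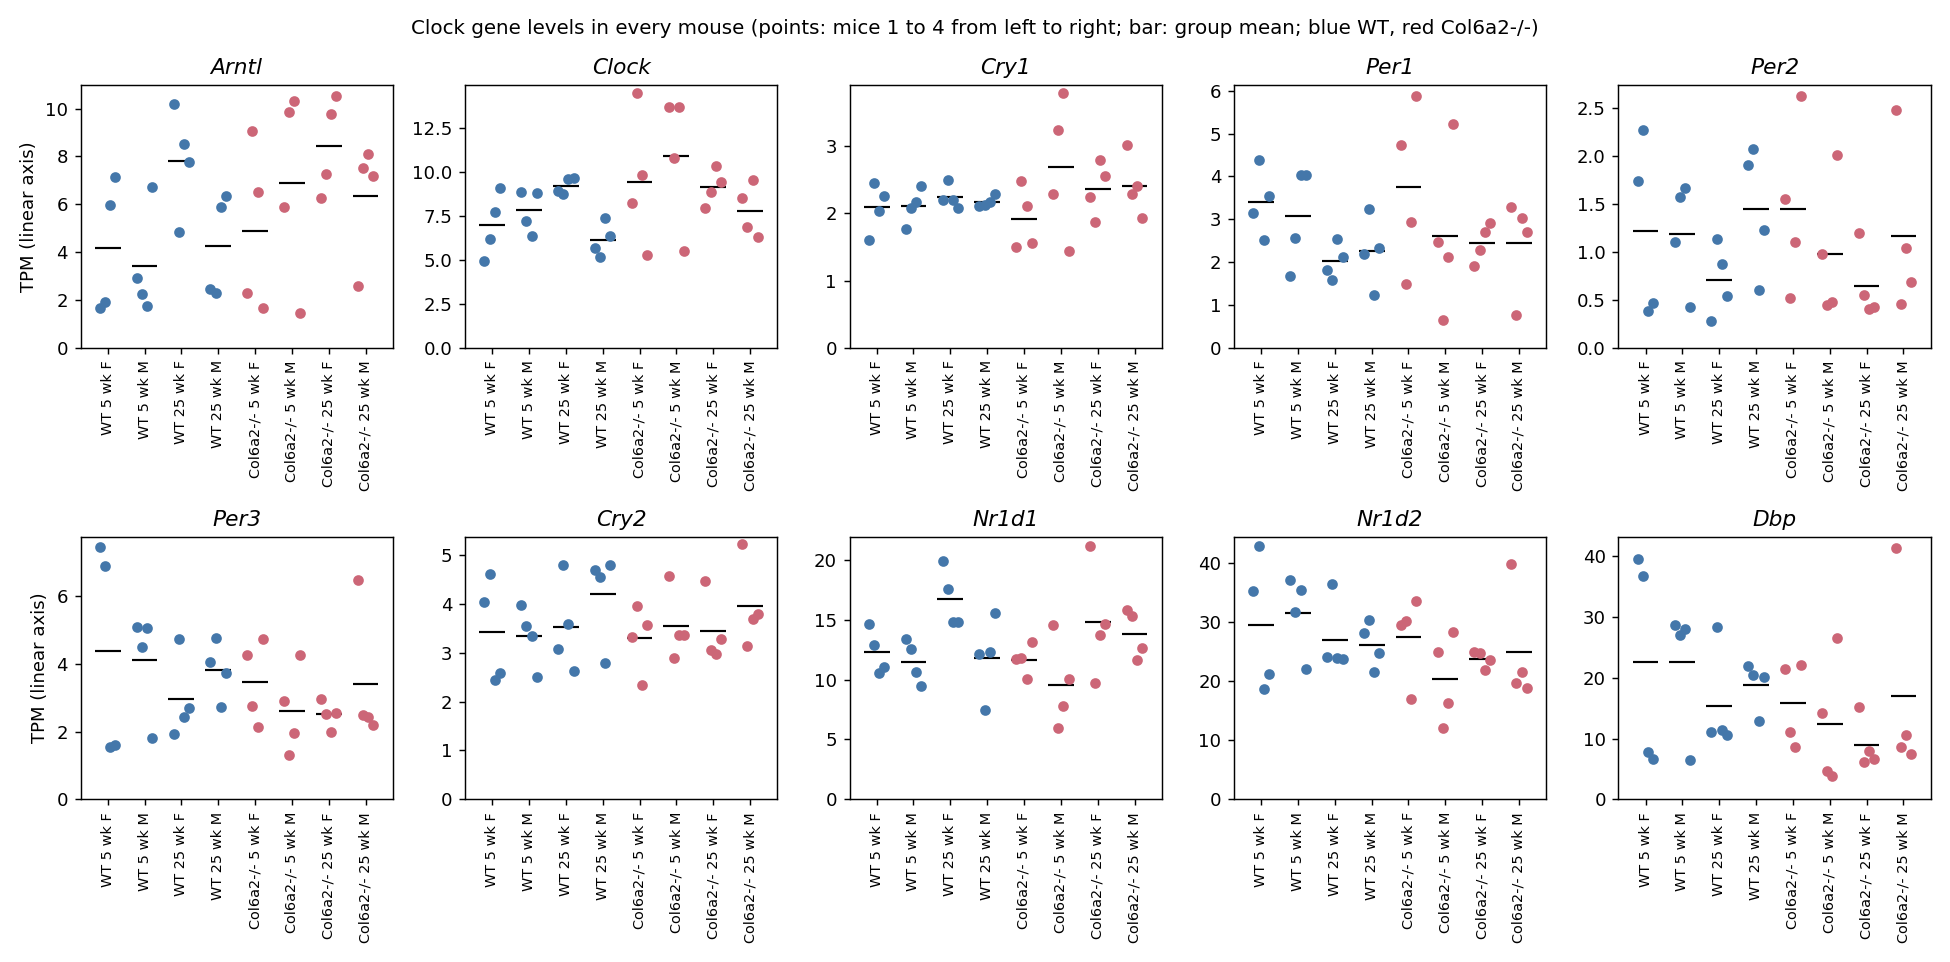
TPM of the 10 clock genes (linear vertical axis) in the 4 mice of each group (horizontal axis; points are mice 1 to 4 from left to right, bars the group means, blue WT and red Col6a2-/-). Arntl and Dbp spread several-fold inside most groups, and no gene separates the genotypes at either age.

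The Per and Cry genes had lower medians than Dbp, whose median was 12.2 TPM. Per2 (ENSMUSG00000055866, chromosome 1, 91415982 to 91459324) was the lowest of the 10 genes, with a median of 1.01 TPM and a range of 0.277 to 2.63 TPM. Per3 (ENSMUSG00000028957, chromosome 4, 151003652 to 151044665), a paralog of Per1 and Per2, had a median of 2.74 TPM and a range of 1.30 to 7.45 TPM. Per1 (ENSMUSG00000020893, chromosome 11, 69095217 to 69109960), a light-responsive repressor in the brain clock, had a median of 2.55 TPM and a range of 0.646 to 5.87 TPM. Within groups the fold between the highest and lowest mouse had a median of 4.31 for Per2, 2.62 for Per3 and 2.52 for Per1. The cryptochromes, which bind the activators directly, varied less than the Per genes within groups: Cry1 (ENSMUSG00000020038, chromosome 10, 85131700 to 85185064) ranged from 1.44 to 3.80 TPM and Cry2 (ENSMUSG00000068742, chromosome 2, 92403646 to 92434043) from 2.34 to 5.23 TPM, with median folds within groups of 1.51 and 1.68.

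Of the REV-ERB genes, Nr1d2 (ENSMUSG00000021775, chromosome 14, 18204054 to 18239127) was the more abundant, with a median of 24.8 TPM and a range of 12.1 to 43.0 TPM. Nr1d1 (ENSMUSG00000020889, chromosome 11, 98767932 to 98775333) had a median of 12.6 TPM and a range of 5.97 to 21.2 TPM. TPM is a level per transcript length, so these levels may be set side by side: Nr1d2 had the highest median of the 10 and Per2 the lowest. Some gene spans overlap others in the tables. The end of Nr1d1 shares 1075 bases with Thra on the opposite strand, a thyroid hormone receptor gene at 8.94 to 18.6 TPM, and Dbp shares 737 bases with Sphk2 on the opposite strand, at 1.40 to 2.62 TPM. All 41014 bases of the Per3 span lie in that of Camta1 on the same strand, at 1.72 to 3.56 TPM, and Clock contains the pseudogene Ube2n-ps1, at 3.43 to 8.35 TPM. Strand use in counting is not given in the sources used here, so reads shared by such genes cannot be told apart.

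Most of the variation of the clock genes lay between mice of one group, not between groups. A median of 19.4% of the variance of log2(TPM + 1) of the 10 genes lay between the 8 groups, against 42.2% over all 12817 tested genes. The share ran from 13.7% for Cry2 to 41.2% for Nr1d1, which was near that of all genes, and was 34.7% for Clock and 30.5% for Arntl. The SD within groups on that log2 scale was 0.897 for Dbp, at the 99.3 percentile of all tested genes, and 0.716 for Arntl, at the 98.7 percentile. It was 0.530 for Per3, 0.484 for Per1, 0.471 for Per2 and 0.397 for Nr1d2, between the 93.6 and 97.3 percentiles. Clock, Nr1d1 and Cry2, at 0.331, 0.311 and 0.263, were at the 88.3, 86.0 and 76.0 percentiles, and Cry1, at 0.212, was at the 55.8 percentile. The median of the 10 genes was 0.434 and that of all tested genes 0.202. The replicates are separate mice, so this is spread between animals and their libraries.

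Across the 8 groups, no clock gene passed the test. limma's F test on log2(TPM + 1) with Benjamini-Hochberg adjustment over all tested genes called 0 of the 10, where it called 44.2% of all genes; 1 clock gene, Nr1d1, had an unadjusted p under 0.05 (adjusted p = 0.0630). Mean Nr1d1 was highest in 25-week WT females, at 16.8 ± 2.47 TPM, and lowest in 5-week Col6a2-/- males, at 9.58 ± 3.70 TPM (SD, n = 4). Mean Dbp was highest in 5-week WT females, at 22.7 ± 17.9 TPM, and lowest in 25-week Col6a2-/- females, at 8.97 ± 4.24 TPM (SD, n = 4). Mean Arntl was highest in 25-week Col6a2-/- females, at 8.45 ± 2.03 TPM, and lowest in 5-week WT males, at 3.41 ± 2.26 TPM (SD, n = 4). When the group means of a gene were put in order, all 7 steps between neighbours were within the larger of their SDs for each clock gene except Clock, where 6 of 7 were. Sorting makes such steps small for any gene: Arntl had 7 of 7 although its highest mean was 2.48-fold its lowest. The share over all genes was not computed, so the count does not show that the groups are alike. The call of 0 moved to 1 without male 2 or 4 of the 25-week WT mice, male 1 of the 5-week Col6a2-/- mice or female 2 of the 25-week Col6a2-/- mice (Nr1d1), and without female 4 or male 4 of the 5-week Col6a2-/- mice (Clock). Under median-of-ratios size factors and under quantile normalization 2 were called (Nr1d1 and Cry2), and 3 with array weights (Nr1d1, Clock and Arntl), where 47.9%, 46.2% and 64.1% of all genes were called.

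The comparison of genotypes asks whether muscle without collagen VI has altered clock gene levels. At 5 weeks 0 of 10 clock genes were called by limma in Col6a2-/- against WT, where 25.4% of all genes were called. The difference closest to the threshold was that of Clock, which had 8 WT mice at 4.94 to 9.10 TPM (median 7.496) and 8 Col6a2-/- mice at 5.26 to 14.5 TPM (median 10.3). Its difference was 0.36 on the log2 scale (SE 0.156, 95% interval 0.04 to 0.68, unadjusted p = 0.0298, adjusted p = 0.0907 by limma), with 6 of 8 Col6a2-/- mice above the WT mean of their sex. The median of all tested genes was itself 0.15 higher in Col6a2-/- at 5 weeks, and relative to it the difference of Clock was 0.21. With median-of-ratios size factors that median was -0.01, but this scaling brings it near 0 by construction, here and in the comparisons below. Whether Clock was called depended on single mice and on weighting. Without female 4 of the Col6a2-/- mice the difference of Clock was 0.47 (adjusted p = 0.0140 by limma) and without male 4 it was 0.49 (adjusted p = 0.00920 by limma). With array weights it was 0.34 (adjusted p = 0.0498 by limma). Apart from single mice left out, the alternatives gave differences of 0.17 to 0.39. Over all alternatives the adjusted p of Clock was 0.00920 to 0.347 by limma. Female 4 and male 4 had the 2 lowest Clock levels of the 5-week Col6a2-/- mice.

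Nr1d2 at 5 weeks had a median of 33.6 TPM in WT mice (18.8 to 43.0) and 26.7 TPM in Col6a2-/- mice (12.1 to 33.7). The genotypes overlapped, and the log2 difference of -0.36 (SE 0.186, 95% interval -0.74 to 0.02) had an adjusted p of 0.157 by limma. With TPM rescaled by median-of-ratios size factors it was -0.55 with an adjusted p of 0.0274, and rescaled without the 100 most abundant genes -0.49 with an adjusted p of 0.0477, so that it passed under these scalings; over all alternatives the adjusted p was 0.0274 to 0.315. Dbp had medians of 27.6 TPM in WT (6.56 to 39.5) and 12.7 TPM in Col6a2-/- mice (3.89 to 26.6). Its log2 difference was -0.59 (SE 0.411) with a 95% interval from -1.44 to 0.25, wide enough to hold both no difference and a fall of more than 1 log2 unit, and 5 of 8 Col6a2-/- mice were below the WT mean of their sex. Arntl had medians of 2.59 TPM in WT (1.65 to 7.15) and 6.19 TPM in Col6a2-/- mice (1.44 to 10.3), with a log2 difference of 0.44 (95% interval -0.23 to 1.11). With single libraries left out this difference ran from 0.28 to 0.69. Per2 had a log2 difference of 0.00 (95% interval -0.45 to 0.45). The remaining 5 genes, Per1, Per3, Cry1, Cry2 and Nr1d1, had log2 differences from -0.29 to 0.06, and over the 10 genes the median was -0.06.

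Genes of other cells differed strongly between the same mice. At 5 weeks all 8 macrophage markers were called higher in Col6a2-/- muscle, with a summed level of 48.5 to 180 TPM against 43.1 to 73.4 TPM in WT. All 5 tested satellite cell and myoblast markers were also called higher. The 6 listed markers of these cells summed to 15.0 to 58.8 TPM against 6.10 to 12.3 TPM. Of the 10 muscle fibre genes 5 were called lower. Of all 12817 genes 2979 were called higher and 274 lower in this comparison, and the share of higher calls was 91.6%, or 47.9% with median-of-ratios size factors. The part of this mixture in the clock gene levels was not tested.

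At 25 weeks the genotypes again did not differ past the threshold. limma called 0 of 10 clock genes, none of which had an unadjusted p under 0.05, where 4.70% of all genes were called. Dbp had medians of 16.5 TPM in WT (10.6 to 28.3) and 8.25 TPM in Col6a2-/- mice (6.09 to 41.4), a log2 difference of -0.57 (95% interval -1.41 to 0.27). Arntl had medians of 6.12 TPM in WT (2.30 to 10.2) and 7.38 TPM in Col6a2-/- mice (2.57 to 10.5), a log2 difference of 0.30 (95% interval -0.37 to 0.98), which ran from 0.21 to 0.46 with single libraries left out. The log2 differences of the remaining 8 genes, Clock, Per1, Per2, Per3, Cry1, Cry2, Nr1d1 and Nr1d2, were -0.17 to 0.14. Both genes overlapped between the genotypes, and at neither age did the 8 WT and 8 Col6a2-/- mice separate for any of the 10 genes, where 1.30% of all tested genes separated at 5 weeks and 0.694% at 25 weeks, too few for a count of 0 in 10 to say anything of the clock genes. The median of all genes was 0.08 higher in Col6a2-/- mice at this age, and -0.02 with median-of-ratios size factors.

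Whether the effect of genotype depended on age or sex was tested directly. The test of genotype by age called 0 of 10 clock genes, with 0 at an unadjusted p under 0.05, where limma called 0.492% of all genes; the largest of these differences of differences was 0.24 for Per1 (95% interval -0.41 to 0.89). The test of genotype by sex likewise called 0, with 0 unadjusted, where 0.0156% of all genes were called. Within a sex limma called 0 of 10 in 5-week females (12.9% of all genes), 5-week males (5.03%), 25-week females (0.00780%) and 25-week males (3.03%). In 5-week males 1 clock gene, Nr1d2, had an unadjusted p under 0.05 and in each of the other 3 sets 0 did. Nr1d2 was at 37.2, 31.8, 35.5 and 22.1 TPM in 5-week WT males and at 25.0, 12.1, 16.3 and 28.4 TPM in 5-week Col6a2-/- males. Most Col6a2-/- males were below most WT males, with an overlap at WT male 4, and the log2 difference was -0.65 (95% interval -1.19 to -0.11, unadjusted p = 0.0193, adjusted p = 0.158 by limma). Clock was called in 5-week females without Col6a2-/- female 4 and in 5-week males without Col6a2-/- male 4, which gave 1 call each, where 30.2% and 7.84% of all genes were called. Without Col6a2-/- female 2 the share of all genes called in 5-week females was 3.59%.

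**Figure D2:**
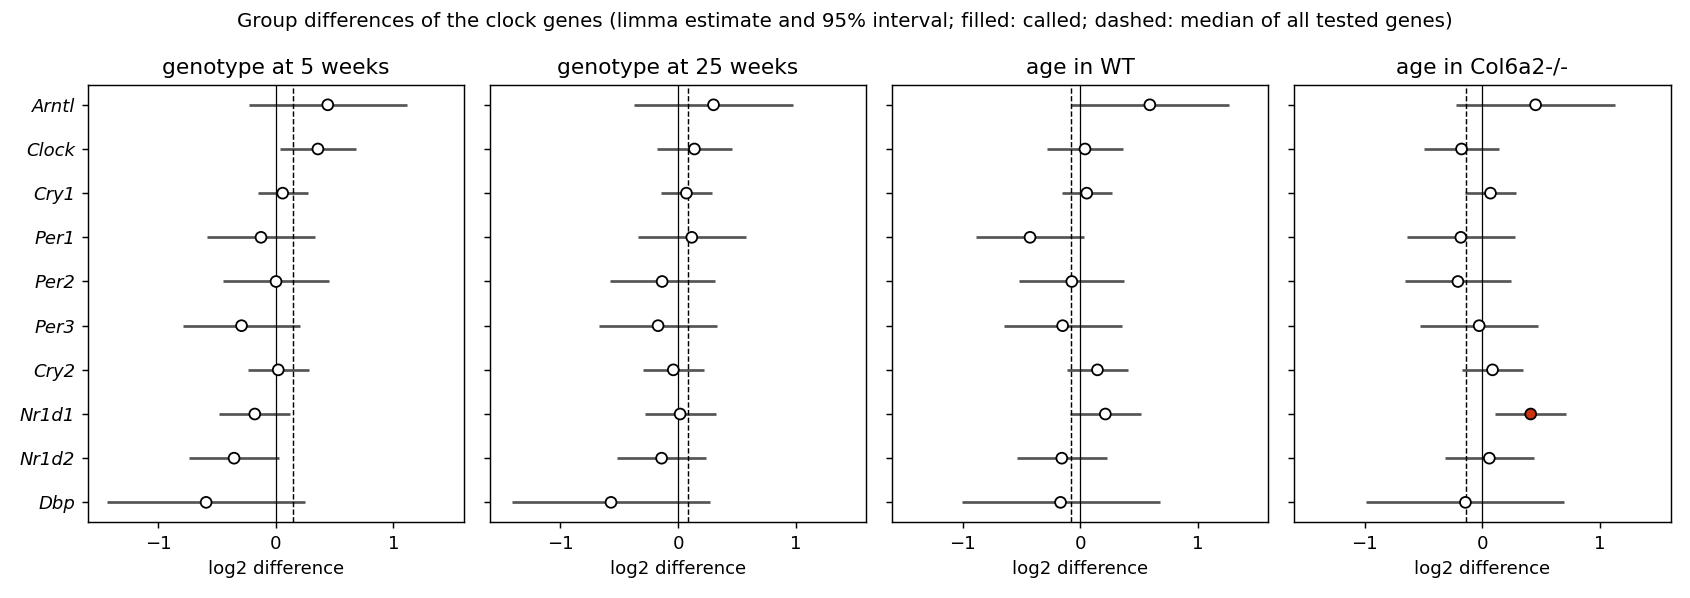
log2 differences of the 10 clock genes (points; bars are 95% intervals; horizontal axis in log2 units) for Col6a2-/- minus WT at 5 and 25 weeks and for 25 minus 5 weeks in WT and Col6a2-/- mice, with the median of all tested genes as a dashed line. All intervals are wide for Dbp and Arntl, and the filled point, Nr1d1 by age in Col6a2-/- mice at 0.41, is the call made.

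Age gave the single call among these tests. Nr1d1, the gene of REV-ERB alpha, was higher at 25 than at 5 weeks in Col6a2-/- mice: it was at 11.7, 11.8, 10.0 and 13.1 TPM in 5-week females and at 14.5, 5.97, 7.77 and 10.0 TPM in 5-week males. At 25 weeks it was at 21.2, 9.73, 13.7 and 14.7 TPM in females and at 15.8, 15.3, 11.7 and 12.7 TPM in males. The ages overlapped, and 7 of 8 mice at 25 weeks were above the 5-week mean of their sex. limma gave a log2 difference of 0.41 (SE 0.148, 95% interval 0.11 to 0.71, adjusted p = 0.0319), or 0.55 relative to the median of all genes, which was -0.14 (with median-of-ratios size factors Nr1d1 was at 0.59 and the median of all genes at 0.01). This was 1 of 10 clock genes, where 34.2% of all genes were called in either direction and 5.41% of all genes were called higher. Of all calls 15.8% were higher, and 50.5% with median-of-ratios size factors. The limma call was lost without female 3 (0.38, adjusted p = 0.0594), male 2 (0.32, 0.0854) or male 3 (0.38, 0.0681) of the 5-week mice, and without female 1 (0.32, 0.0872), male 1 (0.38, 0.0550) or male 2 (0.39, 0.0620) of the 25-week mice. Over all alternatives its adjusted p was 0.00240 to 0.0872. The log2 differences of the other 9 genes in Col6a2-/- mice were from -0.21 for Per2 to 0.45 for Arntl. That of Arntl ran from 0.21 to 0.62 with single libraries left out. All 8 macrophage markers and 4 of 5 satellite cell and myoblast markers fell with age in the same mice, and their part in the Nr1d1 difference was not tested. Age and hour of collection cannot be told apart for it either.

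In WT mice limma called 0 of 10 clock genes with age, with 0 at an unadjusted p under 0.05, where 19.8% of all genes were called. Nr1d1 had 9.46 to 14.6 TPM (median 11.8) at 5 weeks and 7.44 to 19.9 TPM (median 14.8) at 25 weeks, and the log2 difference of 0.21 (95% interval -0.09 to 0.52, adjusted p = 0.342 by limma) did not pass. Whether the age difference of Nr1d1 differed between genotypes is the test of genotype by age, where it was 0.20 (95% interval -0.23 to 0.63, adjusted p = 0.956 by limma), so a difference was not shown. Arntl had medians of 2.59 TPM at 5 weeks and 6.12 TPM at 25 weeks in WT mice, with a log2 difference of 0.59 (95% interval -0.08 to 1.27, adjusted p = 0.221 by limma). Per1 had medians of 3.35 and 2.15 TPM, with a log2 difference of -0.43 (95% interval -0.89 to 0.03, adjusted p = 0.193 by limma). The log2 differences of Clock, Per2, Per3, Cry1, Cry2, Nr1d2 and Dbp with age in WT mice were -0.17 to 0.15. The test of sex called 0 of 10 clock genes by limma, where 3.05% of all genes were called. Nr1d1 alone had an unadjusted p under 0.05 there, with males at -0.24 relative to females (95% interval -0.45 to -0.03, adjusted p = 0.298 by limma), and the other 9 genes were at -0.25, for Arntl, to 0.15, for Per2.

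Within groups, many of the clock genes of a mouse moved together. After subtracting the group mean from log2(TPM + 1), the deviations of the 10 genes over the 32 mice gave 45 pairs of genes. Of these, 27 passed a permutation test of Pearson's r within groups with Benjamini-Hochberg adjustment over the 45, 18 with a positive and 9 with a negative r. Apart from single mice left out, the alternatives gave 15 pairs, at 25 weeks alone, to 33, with median-of-ratios size factors. The share of all gene pairs that would pass was not tested, so the count has no background. Median r with the other 12816 tested genes was 0.43 for Clock, 0.32 for Cry1 and 0.29 for Cry2. For the other clock genes it was from -0.17, for Per1, to 0.17, for Arntl. In mice with more Dbp than their group, Per2, Per3, Nr1d2, Cry2 and Nr1d1 were also higher and Arntl and Clock were lower. The relation of Clock with Dbp, at r = -0.52 and rho = -0.48 (n = 32, permutation p = 0.0133, adjusted p = 0.0239; -0.42 without the 2 mice farthest in Clock), was -0.66 at 5 weeks, -0.01 at 25 weeks and -0.79 over all mice with median-of-ratios size factors. Arntl against Dbp had r = -0.88 and Spearman's rho = -0.87 (n = 32, permutation p = 1e-05, the smallest that 100000 permutations can give, adjusted p = 6.4e-05), and r was -0.85 without the 2 mice farthest in Arntl. It was -0.92 at 5 weeks, -0.78 at 25 weeks, -0.89 in WT and -0.87 in Col6a2-/- mice, and -0.90 to -0.86 with each mouse left out in turn. Of all 48 pairs of mice in the same group, the mouse with more Arntl had less Dbp in 36. In 6 of 8 groups the mouse lowest in Arntl was the one highest in Dbp, and in 3 of 8 the mouse highest in Arntl was the one lowest in Dbp.

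**Figure D3:**
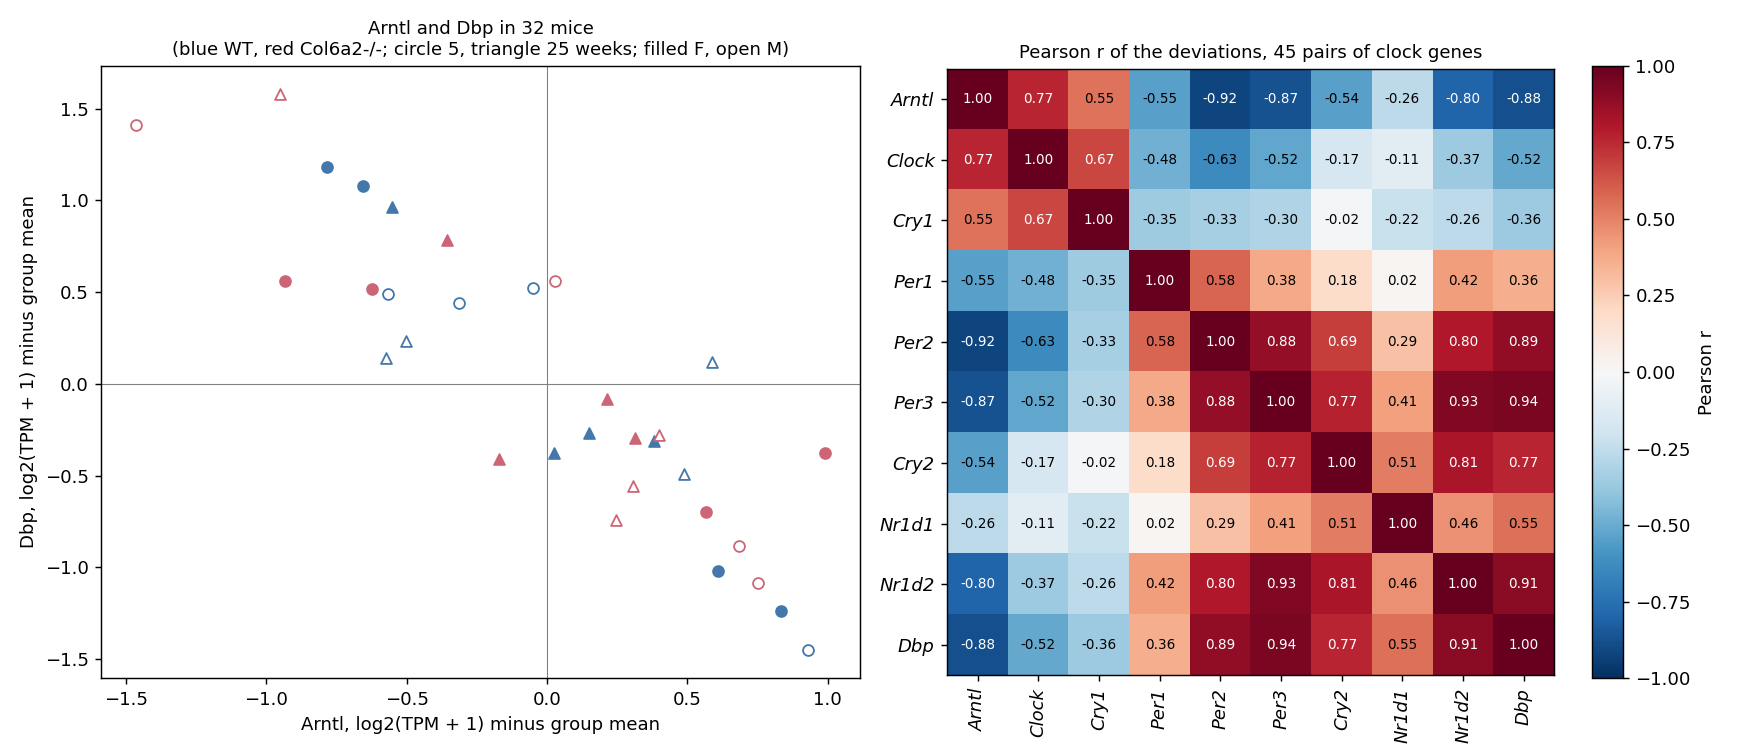
Left, deviations of Dbp (vertical) against Arntl (horizontal) from the group mean on the log2(TPM + 1) scale in 32 mice, coloured by genotype and shaped by age and sex. Right, Pearson r of the deviations for the 45 pairs of clock genes; Arntl and Clock are blue against Dbp, Per2 and Per3, which are red among themselves.

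The closest pair was that of Dbp and Per3, whose start site holds the D-boxes shown above: r = 0.94 and rho = 0.93 (n = 32, permutation p = 1e-05, adjusted p = 6.4e-05), with r = 0.93 without the 2 farthest mice. They differed in the same direction in 40 of 48 pairs of mice. Per3 against Nr1d2 had r = 0.93 and rho = 0.94, and Dbp against Nr1d2 r = 0.91 and rho = 0.91 (n = 32, permutation p = 1e-05 and 2e-05, adjusted p = 6.4e-05 and 0.0001), with r = 0.93 and 0.89 without the 2 farthest mice. The Nr1d2 window held none of the motifs searched for, and a link between motifs and these relations was not tested. The most negative pair was Arntl and Per2, with r = -0.92 and rho = -0.91 (n = 32, permutation p = 1e-05, adjusted p = 6.4e-05), and r = -0.91 without the 2 farthest mice. Those 2 genes differed in opposite directions in 40 of 48 pairs of mice. With median-of-ratios size factors the most negative pair was Arntl and Nr1d2, at r = -0.95 against -0.92 for Arntl and Per2. Arntl and its partner Clock moved in the same direction, with r = 0.77 and rho = 0.71 (n = 32, permutation p = 0.0002, adjusted p = 0.000643) and r = 0.77 without the 2 farthest mice, but r was 0.88 at 5 weeks and 0.32 at 25 weeks. Clock shares part of its variation with most genes: its median r with the other 12816 tested genes was 0.43, against 0.17 for Arntl and 0.05 for Dbp.

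Some relations did not pass over the 32 mice, and their r within each age or genotype is given beside them. Nr1d1, whose product REV-ERB alpha is a known repressor of Arntl, had r = -0.26 and rho = -0.38 with Arntl (n = 32, permutation p = 0.236, adjusted p = 0.280) and r = -0.22 without the 2 farthest mice; r was -0.53 at 5 weeks and 0.12 at 25 weeks. Its paralog Nr1d2 had r = -0.80 and rho = -0.80 (permutation p = 4e-05, adjusted p = 0.000180; -0.76 without the 2 farthest). Nr1d1 did move with Dbp, at r = 0.55 and rho = 0.63 (n = 32, permutation p = 0.00201, adjusted p = 0.00532; 0.61 without the 2 farthest). Per1, with the E-box shown above in 1 of its 2 windows, passed with Arntl, at r = -0.55 and rho = -0.48 (n = 32, permutation p = 0.0176, adjusted p = 0.0304; -0.42 without the 2 farthest), where r was -0.16 in WT and -0.74 in Col6a2-/- mice, and -0.66 at 5 and -0.27 at 25 weeks. It also passed with Per2, at r = 0.58 and rho = 0.52 (n = 32, permutation p = 0.00373, adjusted p = 0.00932; 0.54 without the 2 farthest), but not with Dbp, at r = 0.36 and rho = 0.36 (permutation p = 0.0990, adjusted p = 0.144; 0.28 without the 2 farthest), where r was -0.04 in WT and 0.61 in Col6a2-/- mice. Of the cryptochromes, Cry2 passed with Dbp and Cry1 did not, although both had a positive r at 25 weeks (0.83 and 0.63). Cry2 had r = 0.77 and rho = 0.79 with Dbp (n = 32, permutation p = 6e-05, adjusted p = 0.000225; 0.77 without the 2 farthest), while Cry1 had r = -0.36 and rho = -0.31 (permutation p = 0.139, adjusted p = 0.179; -0.13 without the 2 farthest), with r = -0.70 at 5 weeks and 0.63 at 25 weeks. Cry1 passed with Arntl, at r = 0.55 and rho = 0.50 (n = 32, permutation p = 0.0189, adjusted p = 0.0314; 0.55 without the 2 farthest), yet r was 0.78 at 5 weeks and -0.23 at 25 weeks, the 1 pair of the 27 whose sign differed between ages or genotypes. The differences between these values of r were not tested.

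**Figure D4:**
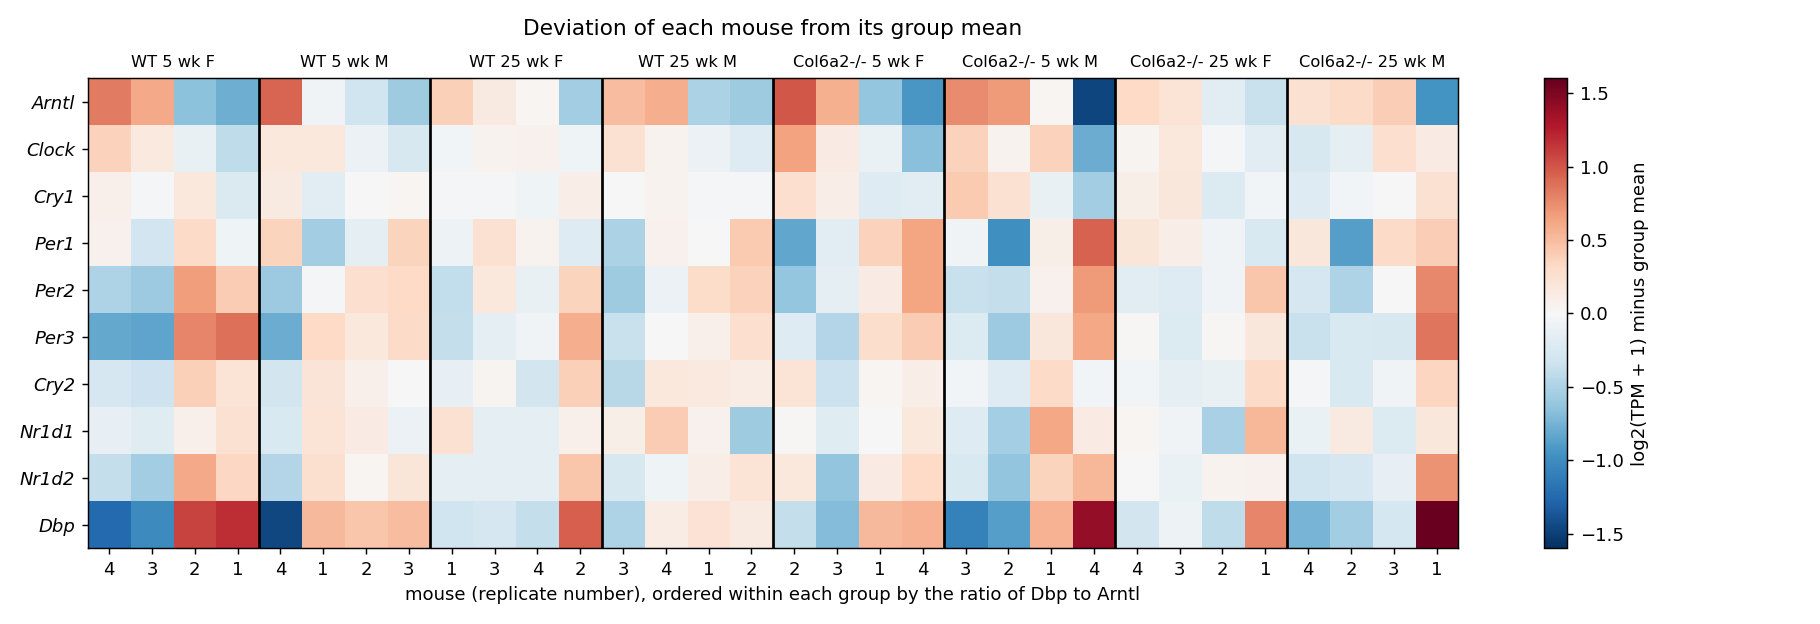
Deviation of each mouse from its group mean (colour, log2(TPM + 1) scale) for the 10 clock genes (vertical), with the mice of each group ordered by the ratio of Dbp to Arntl (horizontal). The ordering itself fixes a fall of Arntl against Dbp along each group. Per2, Per3 and Nr1d2, which it does not use, turn with Dbp. Cry1, Cry2, Nr1d1 and Clock, which vary least within groups, are paler.

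The ratio of Dbp to Arntl in a library does not depend on how TPM is scaled. Its log2 ran from -1.41 to 4.58 with a median of 0.79 over the 32 mice, a 63.5-fold range, and Dbp was above Arntl in 25 of them. In 5-week WT mice the log2 ratio was 2.28 ± 2.49 in females and 2.71 ± 1.86 in males (SD, n = 4), and in 5-week Col6a2-/- mice 1.92 ± 1.82 in females and 0.75 ± 2.60 in males. At 25 weeks it was 0.89 ± 1.11 and 2.28 ± 1.04 in WT females and males and 0.02 ± 0.87 and 1.16 ± 1.90 in Col6a2-/- females and males (SD, n = 4). Within a group the ratio varied 3.85-fold, in 25-week Col6a2-/- females, to 48.9-fold, in 5-week Col6a2-/- males, and the groups overlapped. Levels of Arntl left an empty stretch between 2.91 and 4.85 TPM, with 11 mice of 6 groups below and 21 above it. In these sets r was taken on log2(TPM + 1) without subtracting group means, unlike the r of deviations above. For Arntl with Dbp it was -0.07 among the 11 and -0.60 among the 21. Of the 27 pairs 24 had, in both sets, the sign of their r of deviations. The exceptions were Arntl with Cry2, Arntl with Nr1d2 and Clock with Dbp. Differences between groups thus enter the r of the sets but not that of the deviations. The division was made at a gap seen in the data. Dividing by Arntl narrows its range in each set, which by itself weakens r there. These values therefore cannot show how stable the pairs are. On the log2 scale the widest gap took 0.260 of the range of Arntl levels. In the deviations of Arntl the widest gap was not much smaller, at 0.209 of their range, and lay next to a single mouse.

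Library measures and markers of other cells were set against the same deviations. In 24 such relations for Dbp and Arntl none passed adjustment, and the lowest adjusted permutation p was 0.1345 (n = 32). The deviation of Arntl had r = 0.54 and rho = 0.48 with the summed satellite cell and myoblast markers (permutation p = 0.00923; 0.52 without the 2 farthest mice) and r = 0.50 and rho = 0.48 with the percentage of TPM outside mitochondrial and Rn7s transcripts (permutation p = 0.0112; 0.46 without them). For Dbp the same measures had r = -0.30 and -0.33 and rho = -0.28 and -0.37 (permutation p = 0.0836 and 0.0300; -0.25 and -0.26 without the 2 farthest). With the summed endothelial markers r was 0.50 for Arntl and -0.34 for Dbp (rho = 0.38 and -0.25, permutation p = 0.0224 and 0.1144, r = 0.48 and -0.33 without the 2 farthest). With the mitochondrial percentage r was -0.43 for Arntl and 0.26 for Dbp (rho = -0.48 and 0.34, permutation p = 0.0180 and 0.1185, r = -0.40 and 0.20 without the 2 farthest). With inferred depth r was -0.07 for Arntl and -0.11 for Dbp (rho = -0.09 and -0.07, permutation p = 0.773 and 0.610). Their part in the covariation was not tested.

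Among all tested genes, those most like Arntl between mice of a group included another activator of the loop. By Pearson r of the deviations over the 32 mice, the 4 genes closest to Arntl were Npas2, which encodes a paralog of CLOCK that can replace it as the partner of ARNTL (r = 0.92), Ypel2 (0.88), Adamts4, a secreted protease (0.88), and Sash1 (0.88). The 4 farthest were Per2, Ciart, Dbp and Per3, at -0.92, -0.88, -0.88 and -0.87. For 95% of the 12816 other genes r with Arntl was between -0.34 and 0.56. The 4 genes closest to Dbp were Per3, Nr1d2, Ciart, a repressor of the loop (0.89), and Per2 (0.89), and the 4 farthest Arntl, Npas2 (-0.85), Ypel2 (-0.78) and Asb2, a gene of a muscle ubiquitin ligase subunit (-0.74). For 95% of the other genes r with Dbp was between -0.37 and 0.46. These are descriptions of likeness over mice that share libraries and not measures of regulation.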

How the data were processed

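The authors deposited 1 table per library with the values of StringTie's gene output, in which, per the file headers, TPM and FPKM are abundances per length and Coverage is the mean read coverage of a gene. HISAT2, StringTie, Trimmomatic, SAMtools, FastQC and MultiQC and the builds GRCm38 and mm10 are named in the submitters' processing notes without versions; annotation, strand setting and filters are not given in the sources used here. The 32 libraries are 4 mice in each of 8 groups, as the titles give them, and no 2 tables were identical. TPM of rows with the same gene ID were summed. Read counts were not used here, so depth was inferred from the ratio of coverage to FPKM, and no counting interval can be given.

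Genes reaching 1 TPM in 4 or more libraries were kept, and their log2(TPM + 1) was fitted with limma 3.58.1 in R 4.3.3 (8 group means, empirical Bayes with trend), with Benjamini-Hochberg adjustment over 12817 genes and calls at an adjusted p under 0.05, two-sided. The test was checked on simulated data. Fold changes on this scale understate changes of low genes. The TPM of a library always sums to the same total, so changes of abundant mitochondrial and Rn7s transcripts shift all others. Replicate numbers did not pair the mice. Covariation was tested by 100000 permutations of mice within groups (numpy 2.4.6, scipy 1.17.1). Alternatives were another pseudocount, 2 other filters, 4 scalings, array weights, no trend, a replicate block, single ages or genotypes, and each library left out.

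By rule the text names all 10 members in each comparison, those not given singly by the range of their differences and, in the tests of interaction and within a sex, by counts; from a list of 22 clock-associated genes, up to 3 called genes with the smallest p, of which 1 gene is not reported here; and the 4 genes closest to and farthest from Arntl and Dbp. Lists of cell type markers and of glucocorticoid-induced genes were summed per library. Members and lists were chosen with earlier results of these data known. Sequences are from RefSeq tables on GRCm38.p6.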

Additional observations from a re-analysis of the deposited data

Results flagged for a closer look

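Single mice stood apart from the 3 others of their group in 9 of the 80 sets of 4 values by more of the range, on the log2(TPM + 1) scale, than Dixon's 95% critical value allows. On the TPM scale 8 sets did, 6 of them among the 9; the others were Dbp (41.4 TPM against 7.45 to 10.7 TPM) and Nr1d2 (39.9 TPM against 18.9 to 21.6 TPM) in male 1 of the 25-week Col6a2-/- mice. The values of the 9 follow in TPM. Chance flags about 1 in 20 such sets, or 4 of 80, and the clock genes of a mouse are not independent of each other. Male 1 of the 25-week Col6a2-/- mice was lowest in Arntl, at 2.57 TPM against 7.18 to 8.10 TPM in the other males, and highest in Per3, at 6.49 TPM against 2.21 to 2.49 TPM. Male 2 of that group was lowest in Per1, at 0.758 TPM against 2.70 to 3.28 TPM. Female 2 of the 25-week WT mice was highest in Dbp, at 28.3 TPM against 10.6 to 11.5 TPM, and in Nr1d2, at 36.5 TPM against 23.9 to 24.1 TPM. Male 4 of the 5-week WT mice was lowest in Dbp, at 6.56 TPM against 27.1 to 28.7 TPM, and in Per3, at 1.81 TPM against 4.50 to 5.08 TPM. Male 3 of the 25-week WT mice was lowest in Dbp, at 12.9 TPM against 20.2 to 21.9 TPM, and in Cry2, at 2.78 TPM against 4.55 to 4.79 TPM. No mouse of the 5-week Col6a2-/- groups was set apart in this way, although their Arntl ran from 1.44 to 10.3 TPM. The tests of genotype by age and of genotype by sex called 0 clock genes by limma, with 0 at an unadjusted p under 0.05.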

How the results depend on the processing

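Among the clock genes whose differences were followed through the alternatives, none changed direction. Of the 27 gene pairs, Arntl with Cry1 did, with r = 0.55 over all mice and -0.23 at 25 weeks alone. Median-of-ratios size factors bring the median difference of all genes near 0 by construction, and the calls nearer to balance with it. The median went from 0.15 to -0.01 for genotype at 5 weeks and from 0.08 to -0.02 at 25 weeks. For age it went from -0.14 to 0.01 in Col6a2-/- and from -0.08 to 0.01 in WT mice. The share of higher calls went from 91.6% to 47.9%, 95.03% to 51.4%, 15.8% to 50.5% and 22.6% to 50.2%. These values are therefore a property of the scaling and not a result about the mice. The test over the 8 groups called 0 clock genes, but 2 with median-of-ratios size factors and with quantile normalization (Nr1d1 and Cry2), 1 rescaled without the 100 most abundant genes (Nr1d1), 3 with array weights (Nr1d1, Clock and Arntl), and 0 to 1 with single libraries left out (Nr1d1 without WT 25-week males 2 or 4, Col6a2-/- 5-week male 1 or 25-week female 2; Clock without male 4 or female 4 of the 5-week Col6a2-/- mice). Genotype at 5 weeks called 0, but 1 with median-of-ratios size factors or without the 100 most abundant genes (Nr1d2), 1 with array weights (Clock), and 0 to 1 with single libraries left out, as in 5-week females and in 5-week males alone (Clock, without the same male 4 or female 4). Age in Col6a2-/- mice called 1, but 0 without a filter on low TPM (Nr1d1, adjusted p = 0.0649 by limma), 2 with quantile normalization (Cry1 and Nr1d1), and 0 to 1 with single libraries left out. Every other comparison called 0 under each alternative. Of the 45 gene pairs 27 passed, 15 at 25 weeks alone, 28 at 5 weeks alone, 33 with median-of-ratios size factors, and 22 to 30 with single mice left out. The cause of these changes in the counts was not tested. With the replicate number as a block the test over the 8 groups called 1 (Nr1d1) and no other count changed; the numbers do not pair the mice, since the deviations of same-numbered mice had a mean correlation of 0.031 over 112 pairs, and 10 of 32 libraries were closest to one of their own number. Leaving out females 2 and 4 of the 5-week Col6a2-/- mice together, chosen after seeing the data, gave 24 gene pairs and the same counts of calls. The share of all genes called ran from 21.2% to 64.1% over the alternatives for the 8 groups and from 11.2% to 37.1% for genotype at 5 weeks. Per2 was under 1 TPM in 16 of 32 mice, the most of the 10 genes, and how far depth limits its measurement was not tested.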

Other observations

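Genes that act beside the clock loop were measured from a list of 22, of which 21 passed the filter. Over the 8 groups limma called 6 of the 21, where it called 44.2% of all genes, among them Nono and Bhlhe41. Age called 3 of the 21 in WT mice (1 higher, 2 lower; 19.8% of all genes were called) and 6 in Col6a2-/- mice (2 higher, 4 lower; 34.2% of all genes). Wee1, a cell cycle kinase gene with clock-driven transcription in liver, changed with age by -0.52 in WT and -0.56 in Col6a2-/- mice, and Nono, a PER-associated RNA-binding protein gene, by -0.32 and -0.52 (adjusted p of at most 0.0222 by limma). At 5 weeks genotype called 2 of the 21, where 25.4% of all genes were called: Nono was higher in Col6a2-/- mice, at 0.38 (SE 0.0990, adjusted p = 0.0060 by limma), and Hlf, a relative of Dbp, lower, at -0.41 (SE 0.137, adjusted p = 0.0283 by limma). Hlf was low, with a median of 0.713 TPM. Genotype at 25 weeks called 0 of the 21 by limma, with 3 at an unadjusted p under 0.05, where 4.70% of all genes were called. Bhlhe41, a repressor of the loop, was higher in males by 0.76 (SE 0.117, adjusted p = 8.9e-05 by limma) and was the 1 call of sex among the 21, where 3.05% of all genes were called.

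The deviations of these 21 genes from their group means were set against those of Dbp and Arntl, 42 relations over 32 mice. With Dbp 9 had a positive and 2 a negative r past adjustment, and with Arntl 2 a positive and 6 a negative r, by permutation tests. The share of all tested genes that would pass with Dbp or Arntl was not tested, so these counts have no background. Median r with the other 12816 tested genes was 0.05 for Dbp and 0.17 for Arntl. The DBP relatives moved with Dbp: Tef had r = 0.85 and rho = 0.83 (permutation p = 2e-05, adjusted p = 0.000168; 0.82 without the 2 mice farthest in Dbp) and Hlf r = 0.82 and rho = 0.83 (permutation p = 6e-05, adjusted p = 0.000360; 0.79 without them). Nfil3, which encodes a repressor at the D-box, had r = -0.66 and rho = -0.60 with Dbp (permutation p = 0.00104, adjusted p = 0.00330; -0.68 without the 2 farthest). Tef, Hlf and Nfil3 were singled out after their values were seen. Npas2 against Arntl, at r = 0.92, was measured at 0.0222 to 1.73 TPM, near the low end of these libraries. Hlf, Ciart and Wee1 were low as well, with medians of 0.713, 0.602 and 1.05 TPM.

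Of the other marker lists, the test of genotype at 5 weeks called 4 of 8 fibroblast and 2 of 8 endothelial genes higher and, of 12 glucocorticoid-induced genes, 3 higher and 1 lower. In that comparison 25.4% of all genes were called, 2979 of 12817 higher and 274 lower, so the endothelial and glucocorticoid-induced counts are near the background. None of 7 adipocyte and 5 erythrocyte genes was called by limma, with 0 of each at an unadjusted p under 0.05.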
